A study of Mus musculus with 55 samples.

Results

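Bdh1, Oxct1 and Acat1, 3 genes of ketone body use, were followed in the hearts of 55 male mice. They were found by gene symbol among the 18193 genes of the array that had a probe set annotated to a single symbol, and together they held 9 of its 34958 such probe sets. For each gene the probe set of highest mean over the 55 arrays was used: 1452257_at for Bdh1, 1449059_a_at for Oxct1 and 1451271_a_at for Acat1. All 3 genes were brighter than 20 on the linear scale on every array, so each of the 3 passed the brightness filter.

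The 30 KO hearts came from pure-bred PPARα-/- mice (129S4/SvJae), which lack the fatty acid-activated nuclear receptor PPARα, and the 25 WT hearts came from wild-type mice (129S1/SvImJ). The 2 genotypes were thus different substrains, and an effect of PPARα and an effect of substrain cannot be told apart. The labels call the strain Sv129 and give the age as 9 to 12 weeks in one field and 2 to 6 months in another. All mice ate a modified AIN76A diet, with olive oil in place of corn oil, for 2 weeks, and were fasted for 4 hours before a single 400 µL gavage. The gavage was triolein (5 KO and 4 WT hearts), trilinolein (5 KO and 5 WT), trilinolenin (5 KO and 4 WT), tridocosahexaenoin (5 KO and 5 WT), the synthetic PPARα agonist Wy14643 at 10 mg/mL (5 KO and 4 WT) or a control gavage (5 KO and 3 WT). Wy14643 was suspended in 0.5% carboxymethyl cellulose, which alone was the control gavage according to the treatment protocol, although another label field gives the control treatment as none. Each oil is a triglyceride of a single fatty acid: oleic acid (18 carbons, 1 double bond), linoleic acid (18 and 2), α-linolenic acid (18 and 3) or docosahexaenoic acid (22 and 6). Hearts were collected 6 hours after the gavage, and each array holds the RNA of 1 heart. The question of the study was how dietary fatty acids act on the heart's transcripts with and without PPARα.

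Ketone bodies are made in the liver during fasting and burned in other tissues, and the heart is among their most avid users. In heart mitochondria, the β-hydroxybutyrate dehydrogenase BDH1 oxidises β-hydroxybutyrate to acetoacetate. The transferase OXCT1, also called SCOT, then activates acetoacetate with coenzyme A taken from succinyl-CoA, and the thiolase ACAT1 splits acetoacetyl-CoA to acetyl-CoA for the TCA cycle. PPARα is best known for raising fatty acid oxidation genes in liver and heart, and in liver also the genes of ketone body synthesis. It binds DNA together with RXR, typically at a pair of AGGTCA-like half-sites with 1 base between them.

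In the mouse reference genome GRCm38.p6, which is of another strain than these mice, RefSeq places Bdh1 at chr16:31422297-31458901, Oxct1 at chr15:4026428-4155344 and Acat1 at chr9:53580522-53610350. The RefSeq windows upstream of the annotated starts are shown because PPARα acts through promoter and enhancer DNA. Bdh1 has 2 annotated starts, and the second lies within the gene. Each window holds 250 bases on the plus strand and ends at the base before the start, and capitals mark a match to GGGTCA on either strand. No window was printed for Acat1.
Bdh1, start 1, chr16:31422047-31422296: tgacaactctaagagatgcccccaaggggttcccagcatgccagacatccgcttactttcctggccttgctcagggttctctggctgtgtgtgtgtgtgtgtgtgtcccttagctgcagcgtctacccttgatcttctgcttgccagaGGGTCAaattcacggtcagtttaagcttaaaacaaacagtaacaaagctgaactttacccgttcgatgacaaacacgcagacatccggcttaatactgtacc
Bdh1, start 2, chr16:31428503-31428752: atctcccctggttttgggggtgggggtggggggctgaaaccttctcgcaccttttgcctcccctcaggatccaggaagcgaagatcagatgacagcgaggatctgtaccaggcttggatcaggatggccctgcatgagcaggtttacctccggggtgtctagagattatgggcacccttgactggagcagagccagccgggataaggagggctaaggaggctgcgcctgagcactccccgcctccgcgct
Oxct1, chr15:4026178-4026427: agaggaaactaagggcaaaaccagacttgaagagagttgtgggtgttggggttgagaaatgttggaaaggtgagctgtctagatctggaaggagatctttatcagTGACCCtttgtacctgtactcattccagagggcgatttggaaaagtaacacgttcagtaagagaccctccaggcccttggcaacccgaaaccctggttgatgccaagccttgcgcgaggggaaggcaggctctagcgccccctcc
Neither the full pair, AGGTCA followed by any 1 base and a second AGGTCA, nor a single AGGTCA occurred in these 3 windows on either strand. The half-site variant GGGTCA occurred once before the first Bdh1 start, at bases -102 to -97 from the start, and once before the Oxct1 start, on the minus strand at bases -145 to -140. Of 32851 RefSeq promoter windows of this length, 0.0335% held the full pair, 14.0% held AGGTCA and 11.6% held GGGTCA. The full pair holds AGGTCA and so overlaps it. These matches describe the letters of the windows only.

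Signals are log2 values normalised by the authors, and a difference of 1 is a doubling. KO minus WT differences, their standard errors (SE) and adjusted p-values are from limma, fitted over all 12 groups, with Benjamini-Hochberg adjustment over the 8237 genes that passed the brightness filter, and called means an adjusted p under 0.05. Ppara itself, the gene targeted in the KO mice, averaged 7.31 in KO hearts and 8.08 in WT hearts over the 6 gavages, a difference of -0.77 ± 0.05 (SE; adjusted p = 2.98e-18). Whether its probe set lies in the deleted part of the gene was not checked. All 7 cardiomyocyte markers (Myh6, Actc1, Tnnt2, Tnni3, Myl2, Myl3 and Ryr2) were bright, from 12.81 to 14.87 on all 55 arrays, and the hepatocyte markers Alb, Apoa1 and Ttr stayed under the brightness minimum of 4.32. The atrial markers varied widely between hearts of both genotypes, Myl7 from 8.40 to 12.38. None of the 4 atrial markers was called between genotypes in the mean of 6 gavages. Fewer cells of a type and less RNA per cell cannot be told apart in whole hearts.

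The 3 genes differed between genotypes, and not in the same direction. Over the 6 gavages, with equal weight for each, Bdh1 was higher in KO hearts by 0.71 ± 0.06 (SE), 1.63-fold, with a mean of 10.92 in KO hearts and 10.21 in WT hearts (adjusted p = 3.31e-14). Acat1 was lower in KO hearts by -0.40 ± 0.03, to 0.757 of the WT level, with means of 11.17 in KO and 11.57 in WT (adjusted p = 4.42e-15). Oxct1 was higher in KO hearts by only 0.12 ± 0.02, 1.09-fold, with means of 12.68 in KO and 12.56 in WT (adjusted p = 1.37e-06). All 3 genes were called, where 39% of the tested genes were called in this averaged comparison (22.8% higher and 16.1% lower). The calls alone therefore say little, and the sizes are given beside them. The Bdh1 difference was larger in absolute size than that of 98.1% of the tested genes, and only 59 genes were higher by more. The Acat1 difference exceeded that of 94.8% of the tested genes, and 210 genes were lower by more. The Oxct1 difference exceeded that of 65.8%. The 3 genes were chosen with earlier results of these data known, so these ranks are descriptions and no separate support.

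**Figure D1:**
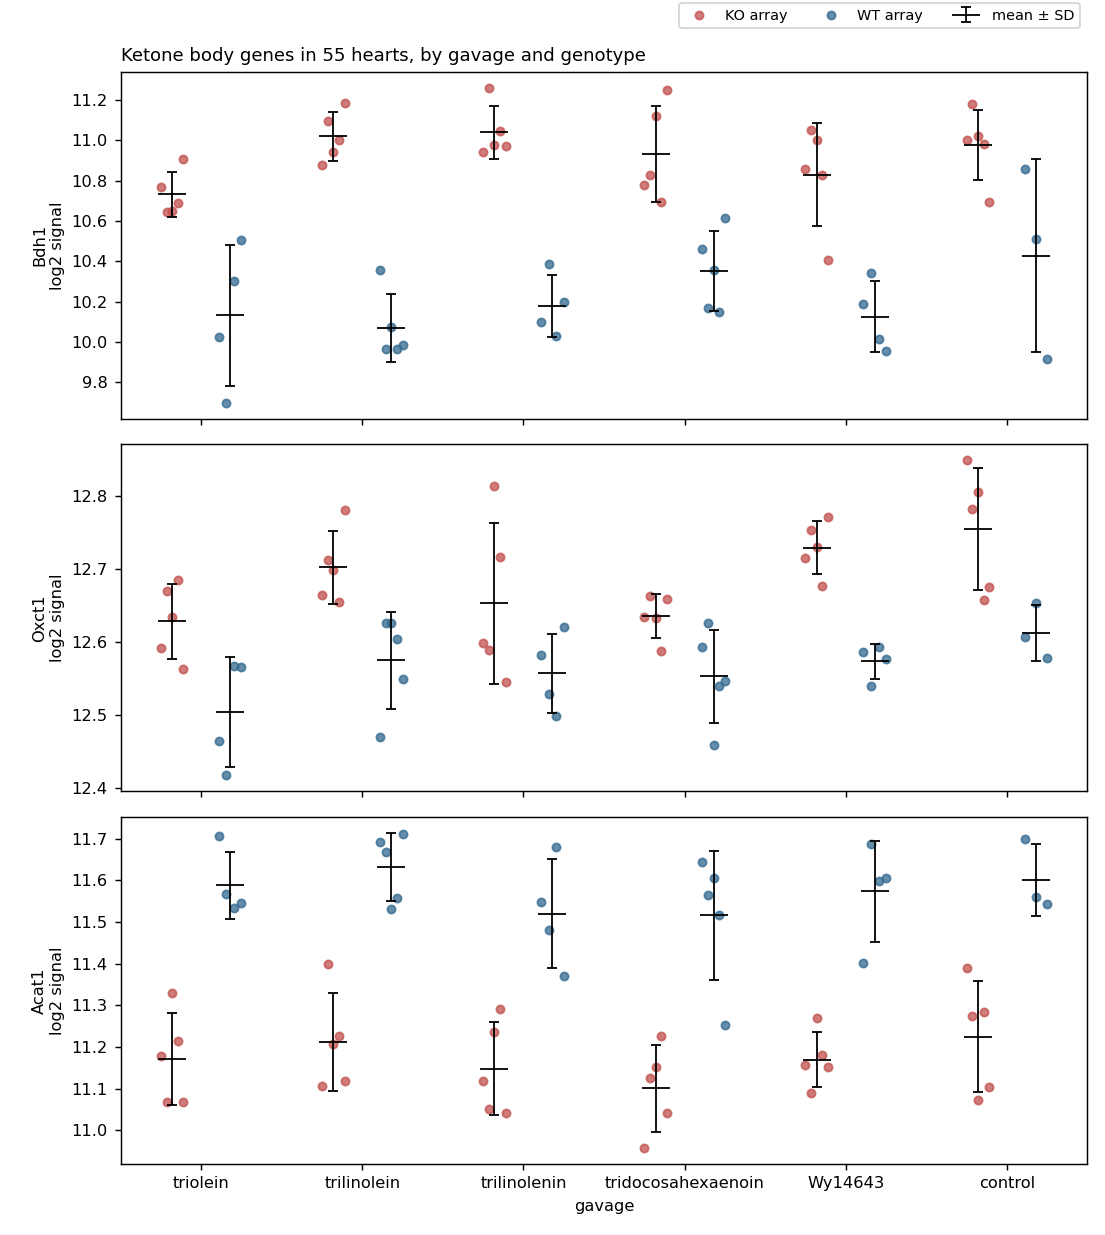
Log2 signal of Bdh1, Oxct1 and Acat1 (main probe set of each) in each of 55 hearts, by gavage, with KO arrays left of WT arrays and bars for the group mean ± SD. The KO mean lies above the WT mean for Bdh1 and Oxct1 and below it for Acat1 under every gavage; the y axes differ between panels and do not start at 0.

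Bdh1, the first step of ketone body use, was called higher in KO hearts under each of the 6 gavages. After triolein, Bdh1 was 10.77, 10.64, 10.65, 10.69 and 10.91 in the 5 KO hearts, against 10.03, 9.70, 10.30 and 10.50 in the 4 WT hearts. After trilinolein it was 10.87, 11.09, 10.94, 11.00 and 11.18 in KO hearts, against 10.36, 9.97, 10.07, 9.97 and 9.99 in WT hearts. After trilinolenin it was 10.94, 11.26, 10.97, 11.04 and 10.97 in KO hearts, against 10.10, 10.39, 10.03 and 10.20 in WT hearts. Every KO heart was above every WT heart of the same oil in these 3 sets. After tridocosahexaenoin Bdh1 was 10.78, 10.83, 11.12, 10.69 and 11.25 in KO hearts, against 10.46, 10.17, 10.35, 10.15 and 10.62 in WT hearts. After Wy14643 it was 10.86, 11.05, 11.00, 10.83 and 10.41 in KO hearts, against 10.19, 10.34, 10.01 and 9.95 in WT hearts. After the control gavage it was 11.00, 11.18, 11.02, 10.98 and 10.69 in KO hearts, against 10.86, 10.51 and 9.92 in WT hearts. The genotypes did not overlap after tridocosahexaenoin or Wy14643, while after the control gavage the lowest KO heart was below the highest of the 3 WT hearts. How many of all tested genes separated in this way was not counted. This and the separations given below therefore describe these hearts only.

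The KO minus WT difference of Bdh1 was 0.60 ± 0.14 (SE) after triolein (adjusted p = 0.00355), 0.95 ± 0.13 after trilinolein (8.06e-07) and 0.86 ± 0.14 after trilinolenin (2.06e-05). It was 0.58 ± 0.13 after tridocosahexaenoin (adjusted p = 0.00243), 0.70 ± 0.14 after Wy14643 (0.000431) and 0.55 ± 0.16 after the control gavage (0.031). The shares of tested genes called in these comparisons were 7.93% for triolein, 9.63% for trilinolein, 9.54% for trilinolenin, 9.57% for tridocosahexaenoin, 9.28% for Wy14643 and 3.62% for the control gavage. The control value rested on few hearts: without WT control replicate 3, the lowest at 9.92, it was 0.29 with an adjusted p of 0.542. Leaving out WT control replicate 2, or KO control replicate 1, 2, 3 or 4, also ended its call, with differences of 0.50 to 0.59. After triolein, leaving out WT replicate 2, the lowest WT heart at 9.70, gave 0.45 with an adjusted p of 0.0502. The call held for trilinolein, trilinolenin, tridocosahexaenoin and Wy14643 whichever array was left out.

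Acat1, the last step, was called lower in KO hearts under each gavage, with differences that lay close together. After triolein, Acat1 was 11.18, 11.07, 11.33, 11.22 and 11.07 in KO hearts, against 11.71, 11.57, 11.53 and 11.55 in WT hearts. After trilinolein it was 11.11, 11.40, 11.21, 11.23 and 11.12 in KO hearts, against 11.69, 11.67, 11.53, 11.56 and 11.71 in WT hearts. After trilinolenin it was 11.12, 11.05, 11.24, 11.29 and 11.04 in KO hearts, against 11.55, 11.48, 11.68 and 11.37 in WT hearts. The KO hearts lay below all WT hearts of the same oil. After tridocosahexaenoin Acat1 was 10.96, 11.13, 11.15, 11.23 and 11.04 in KO hearts, against 11.64, 11.56, 11.61, 11.52 and 11.25 in WT hearts. After Wy14643 it was 11.16, 11.09, 11.27, 11.18 and 11.15 in KO hearts, against 11.40, 11.69, 11.60 and 11.61 in WT hearts. After the control gavage it was 11.39, 11.28, 11.07, 11.29 and 11.11 in KO hearts, against 11.70, 11.56 and 11.54 in WT hearts. The genotypes did not overlap in any of the 6 gavages, though the WT heart at 11.25 after tridocosahexaenoin came close to the highest KO heart of that oil. Again, the share of all tested genes without overlap was not counted.

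The KO minus WT difference of Acat1 was -0.42 ± 0.08 (SE) after triolein (adjusted p = 9.15e-05), -0.42 ± 0.07 after trilinolein (3.49e-05) and -0.37 ± 0.08 after trilinolenin (0.000521). It was -0.42 ± 0.07 after tridocosahexaenoin (adjusted p = 4.52e-05), -0.40 ± 0.08 after Wy14643 (0.000152) and -0.38 ± 0.08 after the control gavage (0.00277). Without WT control replicate 1 the control difference was -0.33 with an adjusted p of 0.0508. The call held in the other 5 gavages whichever array was left out.

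Oxct1, whose enzyme sets the pace of ketone body use and is nearly absent from liver, differed little between genotypes. After Wy14643, the one gavage in which it was called, Oxct1 was 12.72, 12.75, 12.73, 12.68 and 12.77 in KO hearts, against 12.59, 12.54, 12.59 and 12.58 in WT hearts. After trilinolein it was 12.66, 12.71, 12.70, 12.66 and 12.78 in KO hearts, against 12.47, 12.63, 12.63, 12.60 and 12.55 in WT hearts. After the control gavage it was 12.85, 12.78, 12.81, 12.66 and 12.68 in KO hearts, against 12.61, 12.65 and 12.58 in WT hearts. The genotypes did not overlap in these 3 sets, although Oxct1 was not called after trilinolein or the control gavage. Here too, the share of all tested genes without overlap was not counted. After triolein Oxct1 was 12.59, 12.67, 12.63, 12.68 and 12.56 in KO hearts, against 12.47, 12.42, 12.57 and 12.57 in WT hearts. After trilinolenin it was 12.60, 12.59, 12.81, 12.72 and 12.55 in KO hearts, against 12.58, 12.53, 12.50 and 12.62 in WT hearts. After tridocosahexaenoin it was 12.63, 12.66, 12.63, 12.59 and 12.66 in KO hearts, against 12.59, 12.63, 12.46, 12.54 and 12.55 in WT hearts. KO and WT hearts overlapped in these last 3 sets.

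The KO minus WT difference of Oxct1 after Wy14643 was 0.16 ± 0.05 (SE; adjusted p = 0.0273). It was 0.12 after triolein (adjusted p = 0.106), 0.13 after trilinolein (0.0627), 0.10 after trilinolenin (0.227), 0.08 after tridocosahexaenoin (0.275) and 0.14 after the control gavage (0.15). All 6 differences were above 0 and 1 was called. The Wy14643 call was lost without WT replicate 1, 2 or 4 or KO replicate 2 or 5, with differences of 0.14 to 0.16. The main Oxct1 probe set varied little between hearts of 1 group. Its SD within groups was 0.0628, lower than in all but 2.70% of the tested genes, against 0.112 for Acat1 and 0.218 for Bdh1. The other Oxct1 probe sets had SDs of 0.143, 0.149 and 0.0782, and the other Acat1 sets 0.0687 and 0.0634. Whether Oxct1 or Acat1 varied less thus depends on the probe set.

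**Figure D2:**
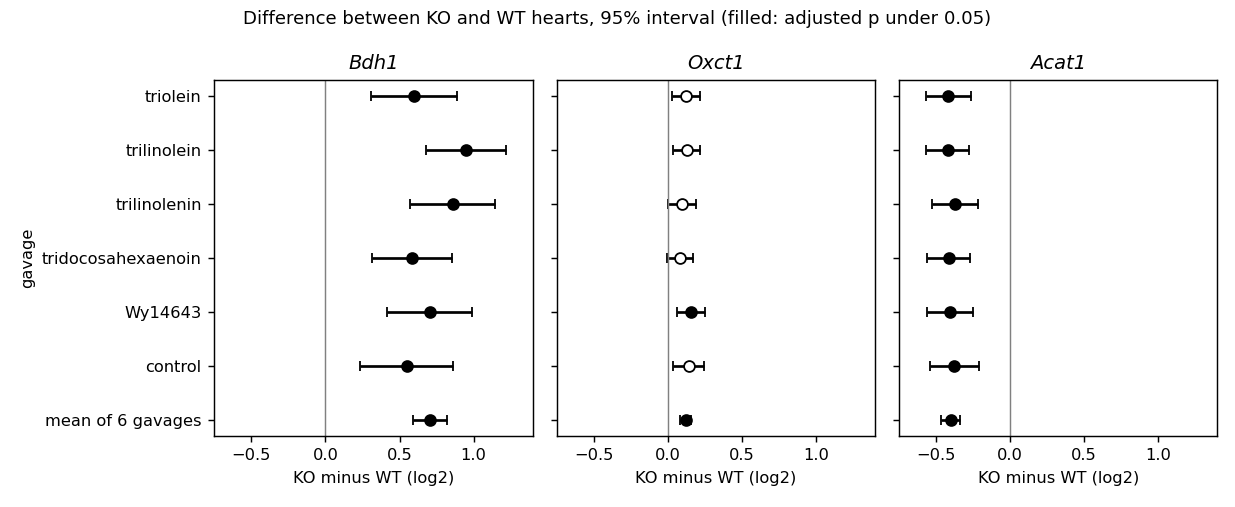
KO minus WT difference (log2) of each gene under each gavage and as the mean of 6 gavages, from limma, with unadjusted 95% intervals; filled points had an adjusted p under 0.05. Bdh1 lies between 0.55 and 0.95, Acat1 between -0.42 and -0.37 and Oxct1 between 0.08 and 0.16.

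Ordered by group mean, all 6 KO groups stood above all 6 WT groups for Bdh1 and Oxct1, and all 6 stood below for Acat1. For Oxct1 the margin was narrow, with KO triolein at 12.63 and WT control at 12.61. How many of all tested genes ordered their groups in this way was not counted, so the order describes these groups only. For Bdh1 the order within KO was trilinolenin 11.04, trilinolein 11.02, control 10.98, tridocosahexaenoin 10.93, Wy14643 10.83 and triolein 10.73. Within WT it was control 10.43, tridocosahexaenoin 10.35, trilinolenin 10.18, triolein 10.13, Wy14643 10.13 and trilinolein 10.07. For Oxct1 the control gavage was highest in both genotypes, at 12.75 in KO and 12.61 in WT, and triolein was lowest, at 12.63 in KO and 12.50 in WT. For Acat1 the control and trilinolein groups led in both genotypes and tridocosahexaenoin was lowest, at 11.10 in KO and 11.52 in WT. No neighbours in these orders differed by more than the larger of their SDs within a genotype. Where the genotypes meet, KO triolein and WT control were within that SD for Bdh1 and Oxct1, while KO control (11.23 ± 0.133, SD, n = 5) and WT tridocosahexaenoin (11.52 ± 0.155, SD, n = 5) were not for Acat1.

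Taking all hearts of a genotype together, Bdh1 ran from 10.41 to 11.26 in KO (median 10.96) and from 9.70 to 10.86 in WT (median 10.17), and 19 of 30 KO hearts were above every WT heart. Oxct1 ran from 12.55 to 12.85 in KO (median 12.67) and from 12.42 to 12.65 in WT (median 12.58), with 21 of 30 KO hearts above every WT heart. Acat1 ran from 10.96 to 11.40 in KO (median 11.15) and from 11.25 to 11.71 in WT (median 11.56), with 23 of 30 KO hearts below every WT heart. Such counts were not made for the other tested genes.

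The other probe sets of each gene gave the same direction. The second Bdh1 probe set, 1426959_at, had a lower mean signal, followed the main one with r = 0.94 over 55 arrays and gave 0.82 ± 0.09 (SE) for the mean of 6 gavages. All 12 Bdh1 values, 2 probe sets in 6 gavages, were above 0 and called, from 0.55 to 1.04. All 18 Acat1 values, from 3 probe sets, were below 0 and called, from -0.53 to -0.33. All 24 Oxct1 values, from 4 probe sets, were above 0, from 0.06 to 0.27, and 4 of them were called. In the mean of 6 gavages the Oxct1 probe sets gave 0.12, 0.15, 0.17 and 0.15. Over 55 arrays the other Oxct1 sets followed the main one with r = 0.58, 0.66 and 0.87, and the other Acat1 sets with 0.90 and 0.89. Probe sets of 1 gene share hearts and transcripts and are not separate evidence.

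**Figure D3:**
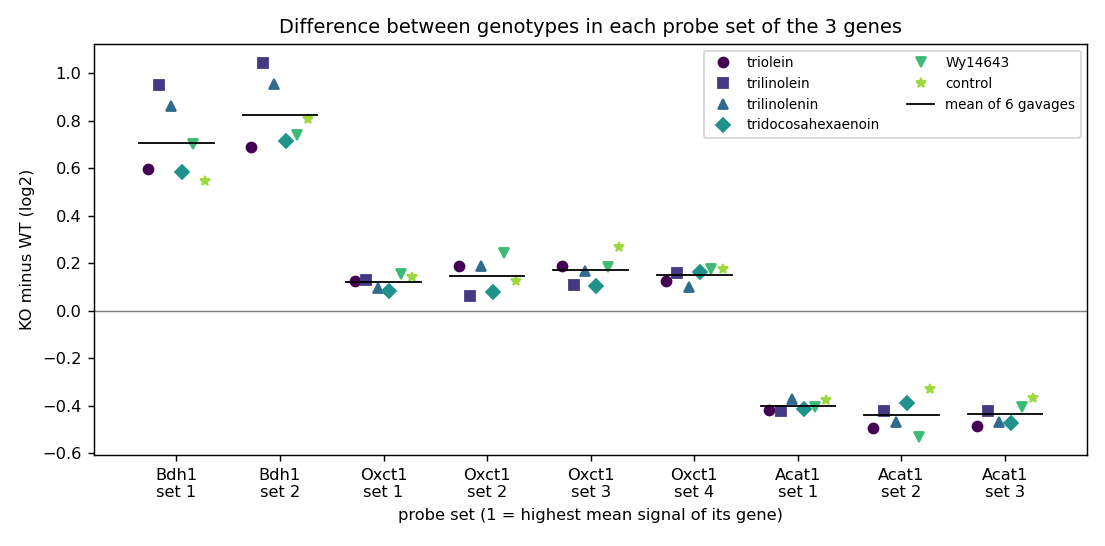
KO minus WT difference (log2) in each of the 9 probe sets, numbered within a gene from the highest mean signal, with 1 symbol per gavage and a line for the mean of 6 gavages. Both Bdh1 sets lie well above 0, all 3 Acat1 sets below 0 and all 4 Oxct1 sets between 0.06 and 0.27.

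Neither the oils nor Wy14643 moved any of the 3 genes past the test. In 10 comparisons of a gavage with the control gavage of the same genotype, limma called each gene in 0. Bdh1 differences ran from -0.36 to 0.06 (lowest adjusted p = 0.306, 1 of 10 with an unadjusted p under 0.05). Oxct1 differences ran from -0.13 to -0.02 and were below 0 in 10 of 10 (lowest adjusted p = 0.127, 4 of 10 unadjusted under 0.05), though those of 1 genotype share their control hearts. The median difference of all tested genes was also below 0 in each of these 10 comparisons, from -0.027 to -0.002. Between 527 and 2102 of the 8237 tested genes had an unadjusted limma p under 0.05 in them. The sign and the unadjusted counts are thus not particular to Oxct1. Acat1 differences ran from -0.12 to 0.03 (lowest adjusted p = 0.375, 0 of 10 unadjusted under 0.05). The 95% intervals reached from -0.67 to 0.33 for Bdh1, -0.22 to 0.07 for Oxct1 and -0.27 to 0.20 for Acat1. In KO hearts the share of tested genes called against the control gavage was 1.15% for triolein, 4.32% for trilinolein, 11.9% for trilinolenin, 3.54% for tridocosahexaenoin and 0.0728% for Wy14643. In WT hearts it was 0.0728% for triolein, 1.25% for trilinolein, 3.41% for trilinolenin, 1.86% for tridocosahexaenoin and 0.0607% for Wy14643.

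With the 4 oils averaged, Oxct1 was 12.66 in KO hearts after oils and 12.75 after the control gavage, a difference of -0.10 ± 0.04 (SE; adjusted p = 0.0626, with 9.8% of tested genes called). This value passed the threshold under some other settings, as given in the closing section. In WT hearts the oils gave -0.07 for Oxct1 (adjusted p = 0.537) and -0.25 ± 0.13 for Bdh1 (adjusted p = 0.405), where 1.2% of tested genes were called. The WT Bdh1 value depended on the 3 control hearts, which spread from 9.92 to 10.86, and lay between -0.50 and -0.03 as single arrays were left out.

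Whether a gavage acted differently in the genotypes was tested as an interaction. Of 6 interactions per gene, limma called 0 for Bdh1, 0 for Oxct1 and 0 for Acat1, none of them with an unadjusted p under 0.05, and across all tested genes each also called 0, with 255 to 399 genes at an unadjusted p under 0.05. For Bdh1 the trilinolein effect was 0.04 in KO and -0.36 in WT, an interaction of 0.40 ± 0.21 (SE) with an unadjusted p of 0.057 and an adjusted p of 1. It was 0.19 without WT control replicate 1 and 0.66 without WT control replicate 3, the lowest and highest values as single arrays were left out. The unequal sizes of the Bdh1 genotype difference across gavages, from 0.55 to 0.95, were therefore not shown to differ. The oils differ in the number of double bonds and, for tridocosahexaenoin, in chain length, and were set against each other at the same volume and time in 6 pairs with genotypes averaged. limma called no pair for any gene, and each gene had 1 of 6 with an unadjusted p under 0.05. Across the 8237 tested genes, 445 to 1634 per pair had an unadjusted p under 0.05, so 1 of 6 is not particular to these genes. The share of tested genes called was 1.92% for trilinolein against triolein, 6.05% for trilinolenin against triolein, 0% for trilinolenin against trilinolein, and for tridocosahexaenoin 0.789% against triolein, 3.48% against trilinolein and 3.01% against trilinolenin. Tridocosahexaenoin exceeded triolein by 0.21 for Bdh1 (95% interval 0.01 to 0.41, adjusted p = 0.377) and trilinolein exceeded triolein by 0.07 for Oxct1 (0.01 to 0.14, 0.305). Tridocosahexaenoin was below trilinolein by -0.11 for Acat1 (-0.22 to -0.01, adjusted p = 0.234). Over all pairs the intervals reached from -0.16 to 0.41 for Bdh1, -0.11 to 0.14 for Oxct1 and -0.22 to 0.15 for Acat1.

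**Figure D4:**
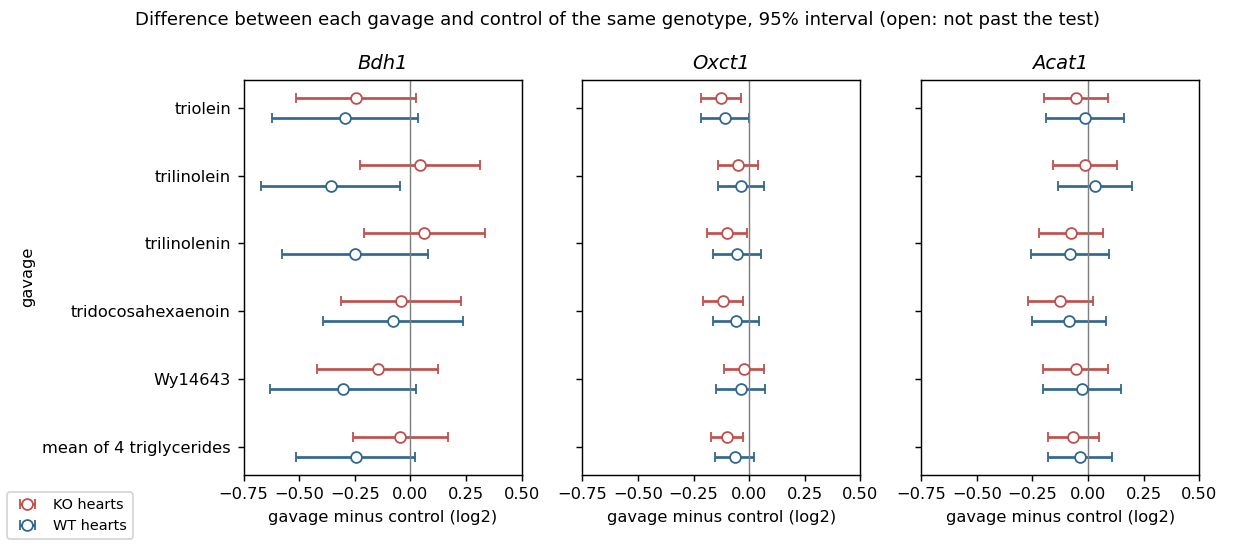
Difference (log2) between each gavage and the control gavage of the same genotype, from limma, with unadjusted 95% intervals, and KO above WT in each row pair. All points are open because none had an adjusted p under 0.05, and the widest intervals are those of Bdh1 in WT hearts.

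The 3 genes followed genotype, and their main probe sets followed each other little within groups. Over 55 arrays Pearson's r was 0.63 between Bdh1 and Oxct1, -0.76 between Bdh1 and Acat1 and -0.53 between Oxct1 and Acat1. After the 12 group means were taken out, r was 0.11, -0.04 and 0.02 for the same pairs. Within groups even probe sets of 1 gene followed its main set only in part. Their r was 0.79 for Bdh1, 0.33, 0.40 and 0.67 for Oxct1, and 0.40 and 0.25 for Acat1. A low r between genes within groups therefore cannot show that the genes vary independently. These are descriptions, and the arrays share genotype, gavage and normalisation.

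The tested genes most like Bdh1 over the 55 arrays were Abat (r = 0.89), which encodes the mitochondrial GABA transaminase, Kyat3 (0.86), a kynurenine aminotransferase, the glutathione transferases Gstm2 (0.86) and Gsta4 (0.85), and the acyl-CoA synthetase Acsl6 (0.85). Acsl6 was higher in KO hearts by 1.31 in the mean of 6 gavages. Like genes were chosen by r over hearts of both genotypes. Their direction between genotypes was thus largely set by the choice and is no separate support. Abat averaged 5.82 in KO hearts and 4.43 in WT hearts, with WT means of 4.31 after trilinolein and 3.99 after Wy14643 under the brightness minimum of 4.32, so its called difference has no exact size. Within groups r with Bdh1 was 0.59 for Abat, 0.59 for Gsta4, 0.55 for Kyat3, 0.41 for Gstm2 and 0.27 for Acsl6. The r over 55 arrays that chose the like genes includes this within-group part, which is therefore no separate support either. Those most like Acat1 were the mitochondrial 3-ketoacyl-CoA thiolase Acaa2 (r = 0.92), the glyoxalase Glo1 (0.91), the muscle fructose bisphosphatase Fbp2 (0.89), the dienoyl-CoA reductase Decr1 (0.89) and the carnitine palmitoyltransferase Cpt2 (0.89). All 5 were lower in KO hearts, a direction largely set by their choice, by -1.77 for Decr1, -1.44 for Cpt2, -0.81 for Glo1 and -0.80 for Acaa2. Fbp2 averaged 3.29 in KO hearts and 6.14 in WT hearts, and since the KO mean is under the brightness minimum its difference has no exact size. Within groups r with Acat1 was 0.60 for Acaa2, 0.48 for Glo1, 0.29 for Fbp2, 0.26 for Decr1 and 0.24 for Cpt2. Those most like Oxct1 were Wfs1 (r = 0.76), an endoplasmic reticulum membrane protein, Ybx2 (0.75), the lactate dehydrogenase B gene Ldhb (0.75), the lysosomal membrane gene Lamp1 (0.74) and Snn (0.74). Within groups r with Oxct1 was 0.64 for Lamp1, 0.49 for Snn, 0.48 for Ldhb, 0.45 for Wfs1 and 0.40 for Ybx2. Ldhb, the heart-type subunit that favours lactate oxidation, was higher in KO hearts by 0.08 ± 0.02 (SE; adjusted p = 6.29e-05), against 0.12 for Oxct1.

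The neighbouring pathways were read from lists of enzymes and transporters. Of 9 listed genes of ketone body synthesis and other ketone enzymes, only Hmgcs1, the cytosolic HMG-CoA synthase of cholesterol synthesis, passed the brightness filter. Hmgcll1, Bdh2, Oxct2a and Aacs stayed under it, and the others were not analysed here. Hmgcs1 averaged 8.16 in KO hearts and 8.04 in WT hearts over 6 gavages, a difference of 0.12 ± 0.03 (SE; adjusted p = 0.00269), and it was called in no single gavage. In KO hearts it fell by 0.25 after trilinolein (adjusted p = 0.0477) and by 0.18 over the 4 oils (adjusted p = 0.0372), both against the KO control gavage. The other oils and Wy14643 gave no call for it, though their KO means were also below the control mean of 8.32. These were 8.10 after triolein, 8.12 after trilinolenin, 8.25 after tridocosahexaenoin and 8.11 after Wy14643, against 8.08 after trilinolein. These means do not show the fall to be particular to trilinolein, and those of the other gavages do not show a fall by themselves.

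Of 8 listed transport and sensing genes, Slc16a1, Slc16a7 and Bsg were tested, Slc16a3, Slc16a6, Emb and Hcar2 stayed under the filter, and Ffar3 was not analysed here. Slc16a1 encodes MCT1, which carries ketone bodies and lactate across the plasma membrane, and Bsg encodes basigin, its chaperone. Over 6 gavages Slc16a1 was higher in KO hearts by 0.12 ± 0.03 (SE; adjusted p = 0.000666) and Bsg lower by -0.09 ± 0.02 (adjusted p = 0.00136), and neither was called in any single gavage. Slc16a7, which encodes the related transporter MCT2, averaged 4.10 in KO hearts and 3.28 in WT hearts. Both means lie under the brightness minimum of 4.32, so its difference of 0.83 has no exact size. The highest WT heart was at 3.78, so Slc16a7 passed the filter only through KO hearts. Its call between genotypes is therefore not read as a result.

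Slc16a1 was called lower after some of the oils. After trilinolenin it was 11.22, 11.15, 11.22, 11.31 and 11.07 in KO hearts, against 11.36, 11.56, 11.53, 11.50 and 11.40 after the KO control gavage. In WT hearts it was 11.15, 10.90, 11.05 and 11.14 after trilinolenin, against 11.29, 11.39 and 11.54 after the WT control gavage. The trilinolenin hearts lay below all control hearts of their genotype, and how many tested genes did likewise was not counted. The difference was -0.27 ± 0.06 (SE) in KO hearts (adjusted p = 0.00285) and -0.35 ± 0.08 in WT hearts (adjusted p = 0.00797). After trilinolein it was -0.24 in KO hearts (adjusted p = 0.0196) and -0.26 in WT hearts (adjusted p = 0.0576). After triolein it was -0.13 in KO hearts (adjusted p = 0.335) and -0.26 in WT hearts (adjusted p = 0.325), and after tridocosahexaenoin -0.10 in KO hearts (adjusted p = 0.426) and -0.21 in WT hearts (adjusted p = 0.123), with no call after either oil. Over the 4 oils it was -0.19 ± 0.05 in KO hearts (adjusted p = 0.0122) and -0.27 ± 0.06 in WT hearts (adjusted p = 0.0212). After Wy14643 it was -0.09 in KO hearts (adjusted p = 0.686) and -0.09 in WT hearts (adjusted p = 0.864). With single arrays left out, the KO trilinolenin call held throughout, and the WT trilinolenin call was lost without WT control replicate 3 (adjusted p = 0.073). The KO trilinolein call was lost in 4 of 10 such fits (KO control replicate 2 or 3, KO trilinolein replicate 1 or 4), and both 4-oil calls were lost without control replicate 2 or 3 of their genotype. Across the 8 tested genes of the ketone, transport and thiolase lists, 0 of 48 interactions of gavage and genotype were called by limma, with 4 at an unadjusted p under 0.05.

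Acat1 stood among other thiolases that were lower in KO hearts. Of 5 listed thiolases, 4 were tested, Acaa1b stayed under the filter, and 3 of the 4 were called lower in the mean of 6 gavages, where 16.1% of all tested genes were called lower. The median of the 4 was -0.29, against 0.02 over all tested genes. Acaa2, the mitochondrial thiolase of fatty acid oxidation, averaged 11.18 in KO hearts and 11.98 in WT hearts, a difference of -0.80 ± 0.03 (SE; adjusted p = 3.5e-26). Hadhb, the thiolase subunit of the mitochondrial trifunctional protein, averaged 12.71 in KO and 13.10 in WT (-0.39 ± 0.04, adjusted p = 5.48e-13). The peroxisomal Scp2 averaged 10.98 in KO and 11.18 in WT (-0.20 ± 0.03, adjusted p = 1.44e-07), while the peroxisomal Acaa1a gave 0.02 ± 0.05 (adjusted p = 0.783). Acaa2 and Hadhb were also called after the control gavage, at -0.63 (adjusted p = 3.77e-07) and -0.33 (adjusted p = 0.0295). Acaa2 was lower after trilinolenin than after the control gavage in KO hearts as well, by -0.27 ± 0.07 (adjusted p = 0.0101).

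The TCA cycle list held small differences, and genes of branched-chain amino acid breakdown were called in a share close to that of all tested genes. Of 18 listed TCA cycle genes, 17 were tested, and in the mean of 6 gavages 2 were called higher and 3 lower in KO hearts, a smaller share than the 39% of all tested genes. Among them were the succinyl-CoA ligase genes Sucla2 (-0.09 ± 0.02, SE, adjusted p = 0.000417) and Suclg2 (0.08 ± 0.02, 0.00019), Ogdh, a subunit gene of the 2-oxoglutarate dehydrogenase that makes succinyl-CoA (0.07 ± 0.02, 0.0037), and the citrate synthase gene Cs (-0.07 ± 0.02, 0.00114). Succinyl-CoA is the coenzyme A donor of OXCT1. Of 17 listed genes of branched-chain amino acid breakdown, a route in which ACAT1 acts on isoleucine carbon, all 17 were tested. In the mean of 6 gavages 6 were called higher and 1 lower in KO hearts. This share is close to the 39% of all tested genes (22.8% higher and 16.1% lower). The largest were Mccc1 (0.34 ± 0.03, SE, adjusted p = 9.75e-13), Bckdhb (0.33 ± 0.02, 3.13e-15), Acadsb (0.26 ± 0.03, 1.73e-10) and Bcat2 (0.25 ± 0.02, 1.43e-11). After the control gavage alone Mccc1 (0.36), Bcat2 (0.31) and Bckdhb (0.27) were called, 3 of 17 where 3.62% of all tested genes were called. Acadsb acts on the isoleucine route upstream of ACAT1 and was higher in KO hearts where Acat1 was lower.

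**Figure D5:**
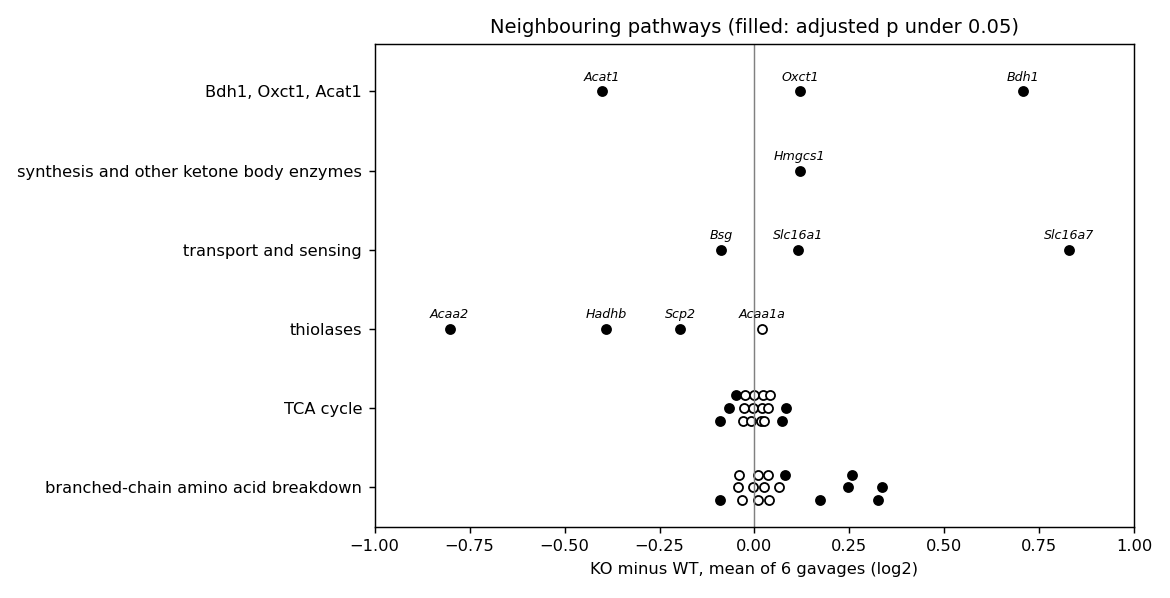
KO minus WT difference (log2, mean of 6 gavages) of every tested gene of 6 lists, 1 list per row, with dots stacked for clarity; filled dots had an adjusted p under 0.05. Acat1 lies near Hadhb on the lower side, and the TCA cycle genes lie within 0.10 of 0. The size of the Slc16a7 difference is not exact because its mean signal is under the brightness minimum. Slc16a7 passed the filter only through KO hearts, so its filled dot is not read as a result.

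Markers of other tissues were set beside the genotype differences. The summed signal of 5 skeletal muscle markers was 8.78 to 10.99 (log2) in KO hearts and 11.29 to 12.34 in WT hearts, without overlap. It came from Acta1, an actin gene that hearts also express, while Myh1, Myh4, Tnnt3 and Tnni2 stayed under the brightness minimum. The sum of 3 brown adipocyte markers was 7.13 to 7.93 in KO hearts and 7.94 to 8.51 in WT hearts, and came from Cidea, with Ucp1 and Elovl3 under the minimum. Within groups, the skeletal sum followed Bdh1 with r = 0.29, Oxct1 with 0.27 and Acat1 with -0.05, and the brown adipocyte sum gave 0.13, -0.04 and 0.19. The atrial sum was 12.31 to 14.26 in KO hearts and 12.21 to 14.04 in WT hearts, and followed Oxct1 within groups with r = -0.37. In the mean of 6 gavages 3 of 5 macrophage markers were called higher and 1 lower, 1 of 5 endothelial markers higher and 2 lower, 2 of 5 fibroblast markers lower, 1 of 4 smooth muscle markers higher and 1 of 7 cardiomyocyte markers higher, where 22.8% of all tested genes were called higher and 16.1% lower. The part of these markers in the differences of Bdh1, Oxct1 and Acat1 was not tested.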

How the data were processed

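Total RNA of 55 mouse hearts was hybridised to Affymetrix arrays, 1 array per heart. The deposited values are log2 signals that the authors obtained with GCRMA 2.2.0, per the submitters' processing notes, which corrects background, quantile-normalises and summarises probes to probe sets. They were used as deposited: the 45101 probe sets ranged from 0.22 to 14.87, with array medians of 2.55 to 2.61. The number of arrays limits the precision, and no scan date or batch is given in the sources used here. Of the probe sets, 34958 had 1 gene symbol in the platform annotation, 932 several and 9211 none. Control probe sets were left out, and each gene was represented by its probe set of highest mean. The 8237 genes whose linear signal exceeded 20 on 3 or more arrays were tested with limma 3.58.1 in R 4.3.3, with 1 mean per genotype and gavage (43 residual degrees of freedom) and Benjamini-Hochberg adjustment per comparison. Replicates are separate hearts. Alternatives covered the filter, probe sets, normalisation, array weights, variance prior, groups in the fit, replicate block and each array left out.

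The 3 genes and all lists were chosen with earlier results of these data known. Genes named were the 3 genes, every tested gene of the ketone, transport and thiolase lists, the 4 called genes of largest difference of the TCA cycle and amino acid lists, and for each of the 3 genes the 5 most like it by Pearson's r. Further genes are named where a count of 5 or fewer, an unlisted result or a low signal needed it. No 2 arrays were duplicates: at most 0.208% of values were identical between any pair.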

Additional observations from a re-analysis of the deposited data

Results flagged for a closer look

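In WT hearts after trilinolein, Bdh1 was 10.36 in replicate 1, and the nearest of the other 4 hearts was at 10.07. The gap took 0.72 of the group's whole range, above the 95% limit of Dixon's test for 5 samples. It was the only such value among 33 groups of 4 or 5 arrays checked over the 3 genes, where chance alone gives about 1 in 20. With this heart left out, the KO minus WT difference of Bdh1 after trilinolein was 1.02 (limma, adjusted p = 4.96e-07), against 0.95 with all hearts.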

How the results depend on the processing

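The calls of Bdh1, Oxct1 and Acat1 in the mean of 6 gavages held under all 8 settings tried and with each of the 55 arrays left out: over the settings Bdh1 was 0.70 to 0.77, Oxct1 0.12 to 0.15 and Acat1 -0.43 to -0.39. Of 783 values under other settings of the 93 results, 13 crossed the threshold, and so did 18 of 1470 values with 1 array left out. No called value changed sign. Uncalled values did in 17 and 55 cases, none larger than 0.18 in size after the change. Without the filter on dim genes, limma's adjusted p was 0.057 for Bdh1 after the control gavage (0.55) and 0.0818 for Oxct1 after Wy14643 (0.16), both KO minus WT. With only the compared groups in the fit, which leaves fewer arrays, it was 0.216 for Bdh1 (0.55) and 0.0742 for Acat1 (-0.38) after the control gavage, and 0.104 for Oxct1 after Wy14643 (0.16). Quantile normalisation once more gave 0.14 for Oxct1 after Wy14643 (0.0696). Oxct1 gained calls in the other direction: KO minus WT after trilinolein was called with a filter at 100 (0.13, adjusted p = 0.0419), array weights (0.12, 0.0444) and a trended, robust variance prior (0.13, 0.0276). The fall of Oxct1 over 4 oils in KO hearts was called with the filter at 100 (-0.10, 0.0446), array weights (-0.11, 0.0214) and the trended prior (-0.10, 0.0309), and that after triolein in KO hearts with array weights (-0.14, 0.0397). The cause of these changes was not tested. With single arrays left out, Bdh1 after the control gavage ranged from 0.29 to 0.76, Bdh1 after triolein from 0.45 to 0.72, Acat1 after the control gavage from -0.42 to -0.33 and Oxct1 after Wy14643 from 0.14 to 0.17. In KO hearts, Oxct1 over 4 oils ranged from -0.12 to -0.076 and after trilinolenin from -0.14 to -0.075. A replicate block gave 0.71 for Bdh1, 0.12 for Oxct1 and -0.39 for Acat1 in the mean of 6 gavages and changed no call of the 3 genes. It moved the count of called genes from 153 to 98 for tridocosahexaenoin in WT hearts and from 5 to 9 for Wy14643 in WT hearts. Deviations of same-numbered hearts correlated with a median r of 0.00036 over 281 pairs, against -0.0087 over 1103 pairs of different number. The numbers thus showed no general pairing of hearts, but a median cannot exclude pairing within some of the groups. The fits of Slc16a1 with single arrays left out and those of the other probe sets were added after the values were seen, and the other Slc16a1 probe set, at a mean of 2.26, was under the brightness minimum. The number of arrays, 3 in the WT control group, limits every comparison with that group.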
